A study of Mus musculus and Homo sapiens with 22 samples.

Results

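Primitive endoderm is the epithelium that the mouse blastocyst sets aside from the epiblast, and it gives rise to the visceral and parietal endoderm of the yolk sac. The 9 genes described here were taken as a fixed list of its transcription factors and markers, namely Gata6, Gata4, Sox17, Sox7, Foxa2, Pdgfra, Dab2, Hnf4a and Afp, out of the 56196 genes in the count files. The rule names the genes and uses no measured value, but the list was chosen with earlier results of these data known. All 9 were found in the 6 gene expression libraries and were looked up in the lists of N6-methyladenosine (m6A) sites. Of these, Dab2 and Foxa2 were higher and Gata4 was lower in Mettl3 knockout cells, Gata6 did not pass the test, and the WT site list held 0 sites in the 9 genes.

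The study compared mouse embryonic stem cells (mESCs) of wild-type genotype (WT) with Mettl3 knockout (KO) mESCs, both taken over from an earlier publication and grown in serum with leukaemia inhibitory factor. No treatment is named. METTL3 is the methyltransferase that places most m6A on mRNA. Poly(A)+ RNA of 3 WT and 3 KO samples was sequenced, and m6A sites were mapped by miCLIP2, in which an m6A antibody is crosslinked to RNA, in WT mESCs, in the human embryonic kidney line HEK293T and in purchased mouse heart RNA. The study calls the mESC replicates of miCLIP2 biological and describes the RNA-seq as done on matching samples. Whether they were separate cultures, and whether the KO line is a single clone, is not given in the sources used here, so the p-values measure the spread between these samples.

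In textbook accounts, inner cell mass cells hold both Nanog and Gata6, and fibroblast growth factor (FGF) signalling through ERK tips some of them toward Gata6 and the primitive endoderm. Sox17, Gata4 and Sox7 follow, the receptor Pdgfra and the endocytic adaptor Dab2 mark the sorted layer, and Foxa2, Hnf4a and Afp belong to the visceral endoderm programme that comes later. Embryonic stem cells stand for the epiblast side of this choice, and primitive endoderm genes are normally low in them.

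Each library held between 22746733 and 27254245 gene counts, and a floor of 3 counts corresponded to between 0.101 and 0.142 CPM (counts relative to the library total, which was scaled by TMM). Floors and intervals on counts cover counting error only. The targeted gene, Mettl3, had 560, 698 and 612 counts in the WT libraries and 462, 669 and 457 in the KO libraries, which is 27.3 ± 1.39 against 19.3 ± 2.95 CPM (SD, n = 3 each). Its log2 fold change was −0.50 with an adjusted p of 0.0134 (edgeR's quasi-likelihood test, Benjamini-Hochberg over 15731 genes), short of the 0.01 used here, and 0.00281 once the replicate number was added as a block. The counts are per gene, and the deleted part was not looked at separately. The 2 lines also differed in transcripts of the Y chromosome, which had between 71 and 189 counts per WT library and between 6079 and 7104 per KO library. Loss of Mettl3 and any other difference between the lines cannot be told apart. In both lines the pluripotency factors Nanog and Pou5f1 were high, at 303 and 289 RPKM (CPM per kilobase of merged exon) in WT, and at 289 and 242 RPKM in KO, against a median of 3.64 and 3.82 RPKM over all genes tested.

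Gata6, the zinc finger factor that opens the primitive endoderm programme, was a low transcript in every library. It had 27, 22 and 16 counts in the WT libraries against 25, 25 and 22 in those of KO, or 0.956 ± 0.279 against 0.884 ± 0.0975 CPM (SD, n = 3 each). The ranges overlapped, and the highest of the 6 libraries was WT replicate 1. The log2 fold change was −0.11 (SE 0.315, 95% interval −0.81 to 0.59, adjusted p = 0.795, edgeR), an interval that leaves room for a change of less than 2-fold in either direction. Its sign was that of 1 library, since without WT replicate 1 the value was 0.14.

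Gata4, a second GATA factor that acts after Gata6, was lower in KO. It had WT counts of 114, 111 and 66 against KO counts of 30, 56 and 30. In CPM these were 5.38, 4.23 and 3.12 against 1.19, 1.89 and 1.11, so that the lowest WT library lay above the highest KO library. The mean level was 3.02-fold lower in KO (log2 fold change −1.59, SE 0.306, adjusted p = 0.00206, edgeR). With only 5 libraries the call was lost in 3 of 6 cases, while the direction was kept in all 6. Leaving out WT replicate 1 gave −1.39 (adjusted p = 0.0114), leaving out KO replicate 1 gave −1.49 (0.0135), and leaving out KO replicate 3 gave −1.44 (0.0125).

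Sox17 and Sox7, SRY-box factors of the same subfamily that lie downstream of the GATA factors, were close to the floor. Sox17 had 7, 7 and 8 counts in the WT libraries against 6, 6 and 11 in those of KO. Sox7 had WT counts of 3, 3 and 11 against KO counts of 3, 4 and 2, and WT replicate 3 stood above the other 5 libraries, at 0.520 CPM against at most 0.142. Neither passed the filter on low counts. Summed over the libraries and scaled to their sizes, the ratio of KO to WT was 0.877 for Sox17 (exact 95% interval 0.467 to 1.65) and 0.444 for Sox7 (0.174 to 1.05), where WT replicate 3 gave 11 of the 17 WT counts, and no difference was detectable at this depth.

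Pdgfra, the receptor for platelet-derived growth factor that is the usual surface marker of primitive endoderm, averaged 2.02-fold more in KO, short of the threshold. It had 35, 30 and 26 counts in the WT libraries against 75, 64 and 81 in those of KO, or 1.34 ± 0.273 against 2.71 ± 0.478 CPM (SD, n = 3 each). All 3 KO libraries lay above all 3 WT libraries. The log2 fold change was 1.02 (SE 0.275, 95% interval 0.41 to 1.63), and the adjusted p of 0.0124 (edgeR) missed the threshold. Under the block on replicate numbers it passed (1.01, adjusted p = 0.00325), and in 0 of the 6 fits without 1 library did it pass (adjusted p between 0.0140 and 0.0512).

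Dab2, an adaptor for clathrin-mediated uptake of receptors such as megalin, was the member with the largest change. It had WT counts of 22, 26 and 23 against KO counts of 1011, 1058 and 750. The WT libraries lay within 0.990 and 1.09 CPM, and the KO libraries at 40.2, 35.7 and 27.7 CPM, far above any WT value. The level was 33.2-fold higher in KO (log2 fold change 5.05, SE 0.203, adjusted p = 3.37e-07, edgeR), and the log2 fold change stayed between 4.93 and 5.20, with the call kept, in each of the 14 alternatives run.

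Foxa2, the forkhead factor of visceral endoderm and later of definitive endoderm, went from a trace to a low level. It had 1, 1 and 2 counts in the WT libraries against 36, 18 and 30 in those of KO, so that the groups did not overlap and each WT library was under the floor. The KO mean was 1.05 ± 0.416 CPM (SD, n = 3). The ratio of summed counts, 84 against 4, was 17.6 after scaling to library size (exact 95% interval 6.63 to 66.1). In the fit the log2 fold change was 4.04 (SE 0.570, adjusted p = 0.000351, edgeR). Foxa2 entered the test only through its KO counts and therefore could pass it in 1 direction only. Foxa1, a relative from the same family, had WT counts of 13, 11 and 9 against KO counts of 10, 20 and 24 (log2 fold change 0.44, adjusted p = 0.382, edgeR).

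Hnf4a, the nuclear receptor that controls visceral endoderm metabolism, averaged 3.80-fold less in KO with a wide spread, short of the threshold. It had 67, 114 and 47 counts in the WT libraries against 7, 54 and 11 in those of KO. The libraries numbered 2 were the highest of their group in both lines, at 4.34 CPM (WT) and 1.82 CPM (KO), and the other 2 KO libraries were at 0.279 and 0.406 CPM. All WT libraries still lay above all KO libraries. The log2 fold change of −1.93 (SE 0.564, 95% interval −3.18 to −0.67, adjusted p = 0.0181, edgeR) missed the threshold. Under the block on replicate numbers it passed (−2.11, adjusted p = 6.3e-05). The same held in DESeq2 (−1.96, adjusted p = 0.00220) and in edgeR without a filter on low counts (−1.89, adjusted p = 8.2e-08). It also passed when KO replicate 2 was left out (−3.22, adjusted p = 0.000829) and, in a fit chosen after seeing the data, when both libraries numbered 2 were left out (−2.96, adjusted p = 0.00181). In 7 of the 13 alternatives that gave it a value it was not called. Hnf4a met the filter on low counts in all WT libraries but not in all KO libraries, and so could be called in 1 direction only.

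Afp, the alpha-fetoprotein that visceral endoderm secretes, had 1 count in WT replicate 1 and 0 in the other 5 libraries. With 3 counts as the limit that 0 allows, its level in a single library was at most between 0.101 and 0.142 CPM.

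**Figure D1:**
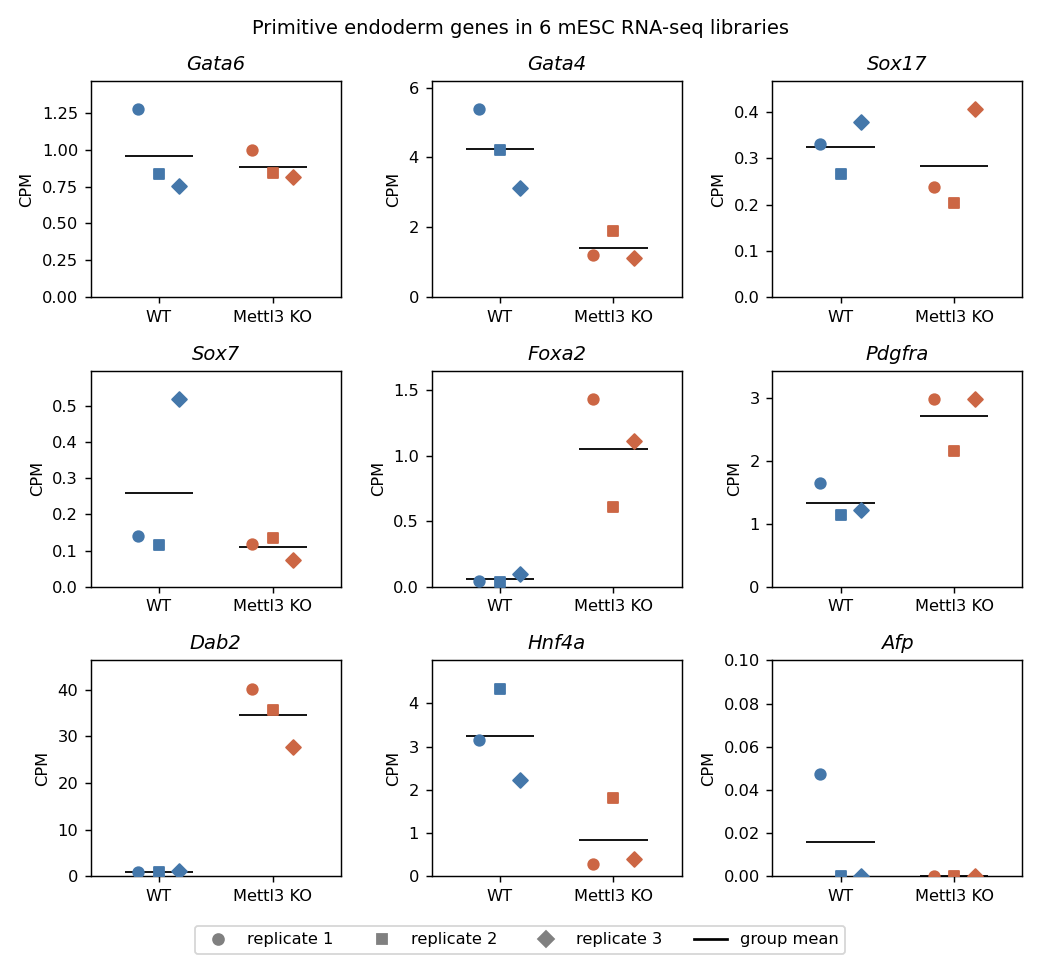
Level of each of the 9 genes (y axis, CPM, linear and scaled separately for each gene) in the 3 WT and 3 Mettl3 KO libraries, with the symbol giving the replicate number and the line the group mean. The groups do not overlap for Gata4, Foxa2, Pdgfra, Dab2 and Hnf4a, as for 56.1% of all genes tested. Replicate 2 is the highest of both groups in Hnf4a, and WT replicate 3 stands apart in Sox7.

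Of the 9 genes, 6 passed the filter on low counts, and 3 of these were called at an adjusted p of at most 0.01, 2 higher (Dab2 and Foxa2) and 1 lower (Gata4) in KO. Over all genes tested 29.7% were called, 17.1% higher and 12.6% lower. The ranges of WT and KO did not overlap in 5 of the 6, against 56.1% of all genes tested. The median log2 fold change was −0.02 over all genes tested and 0.45 over the 6, of which Foxa2 was tested only because of its KO level and Hnf4a only because of its WT level. With a block on replicate numbers 5 of the 6 were called, 3 higher (Pdgfra among them) and 2 lower (Hnf4a among them), against 43.5% of all genes tested, 23.5% higher and 20.0% lower. The called members thus went in both directions. The data are of bulk RNA, so more or fewer cells of a type and more or less RNA per cell cannot be told apart.

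**Figure D2:**
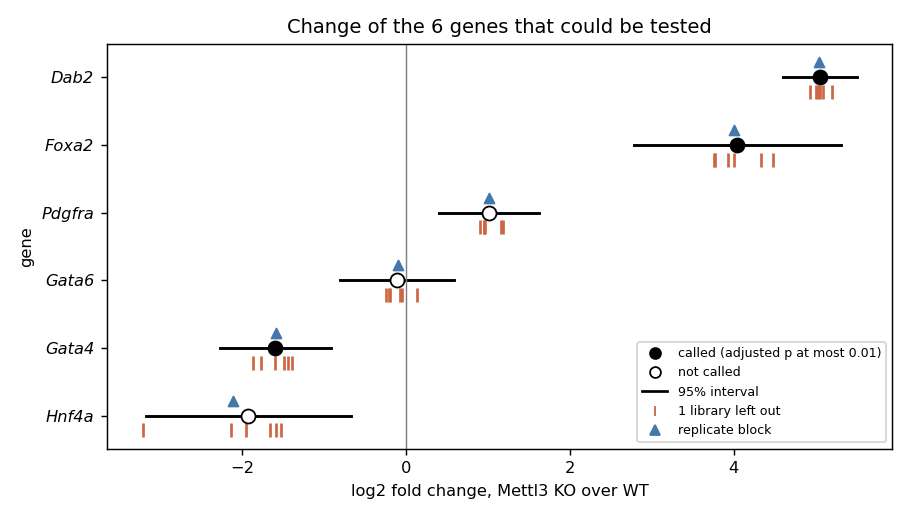
Log2 fold change of KO over WT (x axis) for the 6 genes that could be tested, with 95% intervals, the values with 1 library left out and the values with a replicate block. Dab2 at 5.05 and Foxa2 at 4.04 lie far from 0, Gata6 at −0.11 spans 0, and the widest spread over left-out libraries is that of Hnf4a.

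The order of the levels per length differed between the lines. In WT the highest members were Gata4 at 1.09 ± 0.290 RPKM and Hnf4a at 0.671 ± 0.220 RPKM (SD, n = 3), whose ranges overlapped. Gata6 (0.147), Dab2 (0.141) and Pdgfra (0.134 RPKM) followed with overlapping values, and Sox7, Sox17, Foxa2 and Afp were under 0.1 RPKM on average. In KO, Dab2 led at 4.71 ± 0.864 RPKM, above every other member, followed by Foxa2 (0.443), Gata4 (0.358), Pdgfra (0.271), Hnf4a (0.173) and Gata6 (0.136 RPKM), each with values that overlapped those of the next. Among all genes tested, the level of Dab2 stood at the 6.23 percentile in WT and the 54.4 percentile in KO, and that of Gata4 at the 29.5 percentile and the 13.3 percentile. Apart from Dab2 in KO, no member in either line lay above the 29.5 percentile. The sum over the 9 genes was between 9.40 and 13.1 CPM in WT and between 34.6 and 47.5 CPM in KO. Without Dab2 it was between 8.32 and 12.04 CPM in WT and between 6.91 and 7.66 CPM in KO.

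The neighbours of the called members were looked at as well, beside 29.7% called over all genes tested, 17.1% higher and 12.6% lower. Within 2 Mb of Dab2, on chromosome 15, the 16 tested neighbours had a median log2 fold change of −0.26, and 2 of them were called, Wdr70 and Card6, 1 in each direction. Within 2 Mb of Foxa2, on chromosome 2, 6 of 12 neighbours were called, 5 higher and 1 lower, at a median of 0.24. These were Napb, Nxt1, Nkx2-4, Insm1, Thbd and Kiz. Near Gata4, on chromosome 14, 7 of 30 were called, 5 higher and 2 lower, at a median of −0.12. These names were not chosen by a rule and are given for completeness.

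Across the 6 libraries, the log2 level of Dab2 was most like that of Tor1aip2 (Pearson r = 0.9997), Pter and Gm8730, and that of Pdgfra most like Timp3, an inhibitor of metalloproteases (r = 0.997). Gata4 was most like Qpct (r = 0.997) and Hnf4a most like Unc13b (r = 0.999). These are descriptions over 6 libraries that fall into 2 lines, among 10845 or 10846 genes searched, and the levels of a pair come from the same libraries.

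Of 20 further genes of the primitive and visceral endoderm 11 could be tested, and 1 was called, the homeobox gene Otx2, which is also an epiblast factor, at 344, 541 and 356 counts in the WT libraries against 332, 199 and 164 in those of KO (log2 fold change −1.05, adjusted p = 0.00967, edgeR). That call was lost in 5 of the 6 fits without 1 library (adjusted p between 0.0104 and 0.0400 in those 5). The median of the 11 was 0.44, and over all genes tested 29.7% were called. The partners of Dab2 in endocytosis, Lrp2 (megalin) at 0.42 (adjusted p = 0.0772), Cubn (cubilin, with at most 21 counts in a library) at 1.50 (adjusted p = 0.0292) and Amn at 0.87 (adjusted p = 0.107), were not called. Of the secreted products, the lipid carrier Apob was not called (1.27, adjusted p = 0.0156), with WT counts of 11, 7 and 14 against KO counts of 31, 32 and 31, and was called under the block (1.29, adjusted p = 0.00587). Cer1 and Hhex, genes of the anterior visceral endoderm, had 0 counts in all 6 libraries, and Ttr had at most 9.

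Of 16 genes of the parietal endoderm and its basement membrane 15 could be tested, 6 were higher and 1 was lower, at a median log2 fold change of 0.71, beside 17.1% higher and 12.6% lower over all genes tested. With the block 8 were higher and 1 was lower, beside 23.5% higher and 20.0% lower over all genes tested. Lamb1 (0.62, adjusted p = 0.000884, edgeR) and Krt8 (0.83, adjusted p = 0.00693, edgeR) were added. Krt8 was highest in KO replicate 1, with KO counts of 774, 371 and 356 against WT counts of 169, 249 and 250. The collagen IV chains Col4a2 (1.38, adjusted p = 0.000453) and Col4a1 (0.81, adjusted p = 0.000969) and the linker protein Nid1 (0.71, adjusted p = 0.00383) were higher in KO. So were Pth1r, the receptor for parathyroid hormone-related protein whose activation accompanies parietal differentiation, at 10, 20 and 9 counts in the WT libraries against 95, 115 and 94 in those of KO (2.71, adjusted p = 8.53e-05), the epithelial-mesenchymal factor Snai1 (1.41, adjusted p = 0.00311) and Thbd, thrombomodulin (1.45, adjusted p = 0.00713). Thbd and Pth1r met the filter in all KO libraries but not in all WT libraries, and so could be called in 1 direction only. Thbd had at most 29 counts in a library, lost its call in each of the 6 fits without 1 library and in DESeq2, and lies close to Foxa2. Snai1 lost its call in 3 of these 6 fits and Nid1 in 2. The laminin chain Lama1 was lower (−0.78, adjusted p = 0.00104), Lamb1 was not called without the block (0.57, adjusted p = 0.0329), and Sparc was not called (−0.20, adjusted p = 0.166). Leaving out 1 library gave between 4 and 7 calls, the fewest without KO replicate 1 and without KO replicate 2. In those fits 17.1% and 21.8% of all genes tested were called, against 29.7% with all 6 libraries. Leaving out both libraries numbered 2 gave 3 calls, beside 19.4% of all genes tested. In the fit lacking WT replicate 1 the share fell to 19.1%, while the list had 7 calls.

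Of 10 genes of FGF and ERK signalling, its feedback and its targets, all tested, 1 was higher and 1 lower. Over all genes tested 17.1% were higher and 12.6% lower. The median log2 fold change of the 10 was −0.33. Fgfr2, the FGF receptor that primitive endoderm carries in excess of epiblast, had WT counts of 82, 83 and 49 against KO counts of 600, 535 and 455 (2.65, adjusted p = 2.1e-05, edgeR). Spry2, a feedback inhibitor induced by ERK, was lower (−1.55, adjusted p = 3.9e-05). The ligand Fgf4 was not called (0.14, adjusted p = 0.336, edgeR). Under the block 2 further genes were lower, the receptor Fgfr1 (−0.41, adjusted p = 0.00119, edgeR) and the phosphatase Dusp6 (−1.08, adjusted p = 0.00559, edgeR). With the block 23.5% of all genes tested were higher and 20.0% lower. Dusp6 rested on 1 library, with WT counts of 47, 91 and 182 against KO counts of 55, 50 and 58. Without WT replicate 3 and without the block it was at −0.51 (adjusted p = 0.156). The same library was the highest in the ERK targets Spry4, with 140 counts against at most 56 in the others, and Etv4, with 124 against at most 98.

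Of 10 epiblast and naive pluripotency factors Klf2 was higher (1.61, adjusted p = 1.2e-05, edgeR) and Tfcp2l1 lower (−0.58, adjusted p = 0.00519, edgeR), and the median was −0.01. Over all genes tested 29.7% were called, and 43.5% with the block. Nanog, which opposes Gata6 in the blastocyst, was not called (−0.07, 95% interval −0.33 to 0.19, adjusted p = 0.659), and neither was Pou5f1 (−0.26, adjusted p = 0.165). Tfcp2l1 lost its call without WT replicate 1, without KO replicate 1 and without KO replicate 3 (adjusted p between 0.0267 and 0.0384). Under the block Esrrb (0.43, adjusted p = 0.00191) and Prdm14 (0.40, adjusted p = 0.00583) were also called higher.

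Markers of other cell types were checked beside these results, again against 29.7% of all genes tested called, and 43.5% with the block. Stem cell cultures can hold feeder fibroblasts, which express Pdgfra. For its RT-PCR work the study grew these cells on feeders and removed them before taking RNA. In the libraries, of 10 fibroblast markers 7 were under the filter. The summed level of all 10 was between 9.45 and 13.3 CPM in WT and between 10.6 and 11.9 CPM in KO. Most of it came from Pdgfrb (mean 7.56 CPM in WT, 4.10 in KO) and Thy1 (2.66 in WT, 6.08 in KO). These went in opposite directions, so the sum does not show whether the other markers differed. Lum, Twist2 and Prrx1 had at most 1 count in any library, and Dcn at most 3. Postn had 0, 0 and 0 counts in the WT libraries against 7, 0 and 1 in those of KO. Col3a1 had 0, 0 and 1 against 5, 0 and 1, so that both were highest in KO replicate 1. Among the defining markers, Col1a1 was not called (−0.81, adjusted p = 0.0737), Pdgfrb was lower (−0.88, adjusted p = 0.00491, lost in 4 of the 6 fits without 1 library), Thy1 was higher (1.19, adjusted p = 0.00206), and Col1a2 had 2, 2 and 0 counts in the WT libraries against 7, 9 and 6 in those of KO. Of 8 trophectoderm markers 4 were tested and 1 was called, Gata3, at WT counts of 20, 17 and 11 against KO counts of 243, 232 and 133 (3.40, adjusted p = 5.5e-05). Under the block Tfap2c was called as well (0.48, adjusted p = 0.00154). Cdx2, the defining factor of trophectoderm, had at most 5 counts. Of 8 mesendoderm and definitive endoderm markers, a lineage that also uses Foxa2 and Sox17, 4 were tested and 0 called, and Tbxt had at most 10 counts. Of 6 neural markers 4 were tested and 1 was called, Olig2, with 0, 1 and 0 counts in the WT libraries against 236, 304 and 232 in those of KO, a gene that entered the test only through its KO counts. The part of any other cell type in the levels of the 9 genes was not tested beyond these values.

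**Figure D3:**
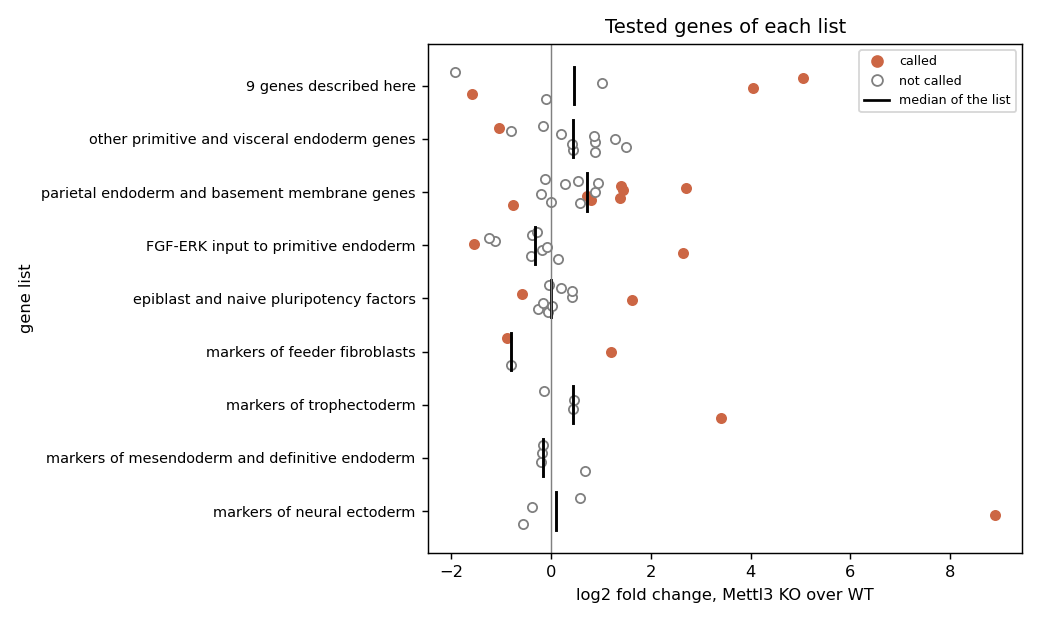
Log2 fold change of KO over WT (x axis) of each tested gene in the 9 gene lists, filled where called at an adjusted p of at most 0.01, with the list's median as a bar. The parietal endoderm and basement membrane list has 6 of 15 genes called higher (17.1% of all genes tested), and 1 gene each in the parietal, FGF-ERK, trophectoderm and neural lists lies beyond 2.

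The WT mESC list held 25456 predicted m6A sites, and 0 of them lay in an exon, or anywhere else, of the 9 genes. Of all genes tested in RNA-seq, 42.0% had at least 1 exonic site in that list. The site lists report only positions that passed a threshold in crosslinked reads, so the level of a transcript bears on whether a site could be seen. Among genes within 2-fold of the WT level of Dab2 1.22% of 2790 had a site, of Gata6 1.14% of 2795, of Pdgfra 1.81% of 2756, of Hnf4a 8.58% of 2505 and of Gata4 14.3% of 2555. At the level of Foxa2 0 of 115 genes had one. Most genes at the level of these 6 had no listed site, though at the level of Gata4 365 had at least 1. The other 3 genes were not compared in this way. A missing entry in the list does not show that a transcript is unmethylated. KO libraries contribute no list of sites, so the Dab2 and Foxa2 transcripts of KO cells have no entry either. For comparison, all 10 epiblast factors had sites in the WT list, 89 in all, and Fgf4 had 19.

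In heart RNA, where several of the same genes serve the myocardium, the valves, the endothelium and fibroblasts, 6 of the 9 had sites. The heart list, made from 1 library with 1 µg of RNA, held 57 sites in them among 46421 in all, with 16 in Pdgfra, 14 in Sox7, 9 in Gata6, 7 in Sox17, 6 in Gata4 and 5 in Dab2. Foxa2, Hnf4a and Afp had 0. Of all genes tested in mESC RNA-seq, 50.2% had a heart site. Of the 57 sites 26 lay in coding sequence, 29 in the 3′ UTR and 2 in the 5′ UTR, and 53 lay in a DRACH motif (D is A, G or T, R is A or G, H is A, C or T), of which 16 were GGACT. Sequence and transcript region are inputs of the classifier that predicted the sites, so that these shares are in part its own. The list has no replicate, and the scale of its score is not given in the sources used here, so scores are used to order sites only.

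The stretches around the site with the highest score in Gata4, Sox17, Sox7 and Pdgfra, and around all 5 of Dab2, are shown because they are the positions at which the same transcript could be read in another tissue. The sequence is that of the RNA strand in GRCm38 (RefSeq), 5′ to 3′ with T for U, and the capitals mark the 5 nt centred on the A at the site.

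Gata4, coding, chr14:63200420-63200440, minus strand: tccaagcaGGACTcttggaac
Sox17, coding, chr1:4492193-4492213, minus strand: ccagtctcGGACTatgcagtg
Sox7, 3′ UTR, chr14:63949023-63949043, plus strand: tcagtctcTAACTggcaaaac
Pdgfra, 3′ UTR, chr5:75195346-75195366, plus strand: caagagagTGACTggccacag
Dab2, coding, exon 10, chr15:6429341-6429361, plus strand: accaatcaGAACTctttaaga
Dab2, coding, exon 10, chr15:6429658-6429678, plus strand: ctctaaccGGACTggcaaacc
Dab2, coding, exon 10, chr15:6429813-6429833, plus strand: ctcccaaaGGACTatcggtac
Dab2, coding, exon 12, chr15:6435545-6435565, plus strand: ccactaaaGGACAttcccagt
Dab2, coding, exon 12, chr15:6435623-6435643, plus strand: atgtttaaGGACTtccagctg

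The 5 sites of Dab2 all lay in coding sequence, in exons 10 and 12 of 15, between 1555 and 334 nt before the end of the coding sequence, and none lay in the last exon or the 3′ UTR. All but 4 of the sites of the other 5 genes were in the last exon, which held 48 of the 57. All 7 sites of Sox17 were in the coding part of its last exon. Of the 16 sites of Pdgfra 14 were in the 3′ UTR, up to 1863 nt after the end of the coding sequence. The strongest site of Gata4, with a score of 158 against a median of 11.7 over the heart list, lay 52 nt before that end, and 2 further sites lay in the 5′ UTR in exon 2. Gata6 had its highest score, 133, at 550 nt into the 3′ UTR.

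**Figure D4:**
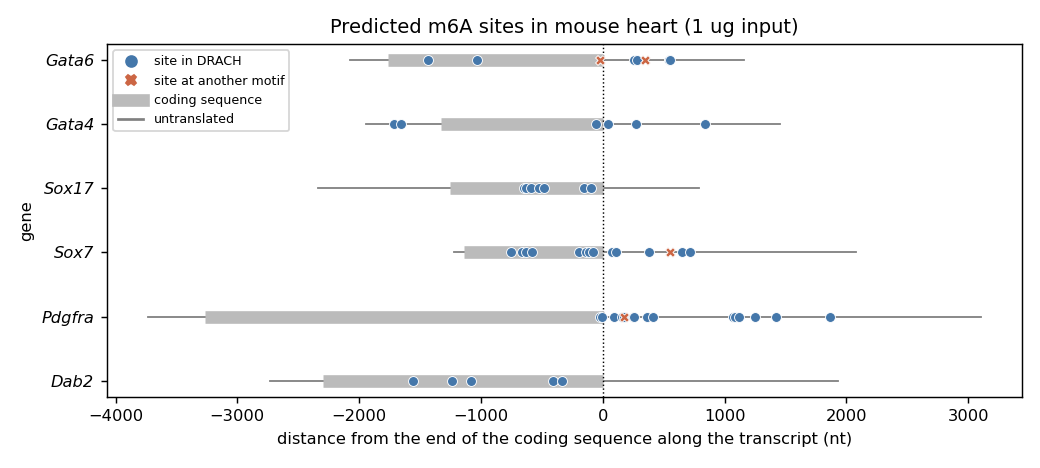
Predicted m6A sites in mouse heart RNA (1 library) along the longest coding transcript of the 6 genes that had any, with the distance from the end of the coding sequence on the x axis in nt and the coding sequence as a grey bar. Pdgfra sites lie almost all after the end of the coding sequence, and those of Dab2 and Sox17 all before it.

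In HEK293T cells, 21 sites lay in exons of the human counterparts among 36556 in all, 13 in GATA4, 5 in GATA6 and 3 in SOX7. The 3 sites of SOX7 lay in exons that are shared with another gene and cannot be assigned. The other 6 genes had 0 sites. GATA4 and GATA6 were thus the members with assignable sites in both lists. A difference between the lists was not tested, since they come from different RNA, species and replicate numbers.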

How the data were processed

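For the deposited gene counts, the authors mapped single-end reads to GRCm38 (STAR 2.6.1b) and counted them by strand (HTSeq 0.12.4). They are whole numbers and not normalised. Lines that name no gene were left out. Site lists were deposited by the authors as positions with a score, a fraction between 0 and 1 in the mESC and HEK293T lists, after mapping with STAR 2.7.3a, removal of duplicates with UMI-tools 1.0.0, peak calling and prediction by m6Aboost, over 3 replicates for mESC, 4 for HEK293T and 1 library for heart.

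KO was tested against WT by the quasi-likelihood test of edgeR 4.0.16 in R 4.3.3, after filterByExpr and TMM scaling, and genes were called at a Benjamini-Hochberg adjusted p of at most 0.01. The SE is the log2 fold change over the root of F. On simulated counts with 100 genes changed at each size, 88% of log2 changes of 1 and 100% of log2 changes of 2 were recovered, with 2 false calls. The changed genes were drawn only from levels above those of every member except Dab2, and all genes shared a common dispersion. These rates therefore do not hold for the other members, whose recovery was not simulated. RPKM used merged exons of GENCODE M21, and 98.1% of genes in the files had an entry. Human sites were placed on GENCODE 44. Same-numbered WT and KO libraries had r = 0.122, 0.464 and 0.303 between their deviations from the group mean. Those of unlike number had r between −0.342 and 0.110, the highest for WT replicate 3 with KO replicate 1. The pair numbered 1 thus hardly stood apart, and the labels do not say that equal numbers share a batch. A block on the replicate number is an assumption, and the blocked value is given as an alternative where it changes a call. Libraries of a group differed by more than counting noise (chi-square per degree of freedom between 7.92 and 92.3). DESeq2 1.42.0 was an alternative. Sites were handled in Python 3.11.15 with pandas 2.3.3 and NumPy 2.4.6, and plots were drawn with Matplotlib 3.10.9.

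The members, lists and tests were chosen with earlier results of these data known. Named genes were the 9 members, Mettl3, from each other list the 2 highest and 2 lowest called genes by log2 fold change (every called gene where at most 4 were called), Pdgfrb, Col1a1, Col1a2, Nanog and Pou5f1, and the 3 genes most alike by Pearson r to each member with a mean of at least 50 counts (Gata4, Pdgfra, Dab2 and Hnf4a). Other named genes were chosen after their values were seen. Other heart inputs and the KO miCLIP2 libraries were not used here.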

Additional observations from a re-analysis of the deposited data

How the results depend on the processing

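Of the 9 genes, 3 were called in the reported fit, and 5 with no filter on low counts (of 9 tested, 3 higher and 2 lower), 5 at an adjusted p of at most 0.05 and 5 with the replicate block. Leaving out 1 library gave between 2 and 4. DESeq2 gave 4 and scaling by library size alone 4. The share called among all genes moved as well, from 29.7% in the reported fit to 34.8% in DESeq2 and 26.3% with library size alone. This share was 20.6% of 31057 with the filter dropped, 46.6% under the 0.05 limit and 43.5% with the block. It lay between 17.1% and 33.1% in the fits on 5 libraries. Dab2 kept its call in all 14 alternatives and Foxa2 in the 13 that gave it a value. With at least 10 counts asked of every library, Foxa2 and Hnf4a had no value. Gata6 lay between −0.24 and 0.14 with 1 library left out, and turned sign without WT replicate 1. Of all genes 4669 were called, and 7336 at an adjusted p of at most 0.05, 6837 with the replicate block, between 2761 and 5412 with 1 library left out, and 3042 without both libraries numbered 2, a fit added after seeing the data. Under library size alone, the median over all genes was at a log2 fold change of 0.08 in place of −0.02, with 2937 higher and 1199 lower calls, against 2687 and 1982. In that scaling Otx2, Tfcp2l1 and Pdgfrb lost their calls and Pdgfra (1.12, adjusted p = 0.00894) and Apob (1.39, adjusted p = 0.00997) gained one. Without a filter on low counts, Sox17 was at −0.16 (adjusted p = 0.868) and Sox7 at −1.12 (adjusted p = 0.275). Sites in the 9 genes were 0 in WT mESC under every alternative and 57 in heart under those run. In HEK293T they were 21, and 10 at a score of at least 0.7. The cause of these shifts was not tested. Members at 0 to 30 counts in a library are limited by depth.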
